A study of Sus scrofa with 12 samples.

Results

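A set of 10 genes of the Wnt and Notch signalling pathways were followed through maps of N6-methyladenosine (m6A), a methyl mark on adenosine in mRNA, in pig skeletal muscle. They are the Wnt genes WNT4, RSPO3, SFRP2, DKK3, FZD2, FZD6 and APC and the Notch genes DLL4, HES1 and HEY2, taken by name from the gene column of the peak lists: 10 of 2159 genes with a peak, and 111 of 13487 peaks. The muscle was longissimus dorsi, taken at 5 days of age from Large White and from Ningxiang pigs, with no treatment and no genetic change named. The study asks which mRNAs bearing m6A take part in the growth of muscle in each breed. There were 3 replicates per breed, each with an immunoprecipitated and an input library and 1 list of peaks, where the antibody had enriched RNA fragments over input. The labels do not say whether the replicates were separate animals, so every test below measures the spread between these lists, which may be technical.

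Wnt proteins are secreted ligands that bind Frizzled receptors. In the canonical branch they stop a cytoplasmic complex that contains APC from marking beta-catenin for destruction. R-spondins strengthen that signal, while SFRP proteins bind Wnt outside the cell. Notch receptors are cut after contact with a ligand such as DLL4 on a neighbouring cell, and the released fragment switches on repressor genes of the HES and HEY families. In muscle both pathways are known from the control of satellite cells, the stem cells of the fibre, and DLL4, HEY2 and other Notch genes are known from blood vessels.

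The lists were made from whole tissue, so a peak cannot be placed in a cell type, and fewer cells of a type and less RNA per cell cannot be told apart. Of 12 skeletal muscle fibre markers 10 had a peak in some list and 8 in all 6 lists, among them MYH1, MYH2, DES and CKM, while ACTA1 had none. Of the 2159 genes with a peak 2102 had a curated transcript in the RefSeq table used here, and TTN and the satellite cell gene PAX7 have none there and had no peak. Of 10 endothelial markers, 5 had a curated transcript. Peaks lay on 4 of them in every Large White list and on 3 to 4 in Ningxiang lists. PECAM1, CDH5 and ENG had a peak in all 6. Of 8 fibroblast markers, 6 had a curated transcript, and COL3A1 was one of these but had no peak. Fibroblast markers with a peak numbered 5 in every Large White list and 4 to 5 in Ningxiang lists. Of 6 satellite cell markers, 4 had a curated transcript. Those with a peak ranged from 0 to 2 in Large White and from 1 to 3 in Ningxiang. Lists held 2373, 2214 and 2533 peaks in Large White and 2034, 2111 and 2222 in Ningxiang. The depth of sequencing is unknown, so a gene without a peak was below the authors' calling threshold and is not shown to lack m6A.

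WNT4, SFRP2, DKK3, APC and HES1, 5 of the 10, carried a peak in all 6 lists. Among all genes with a peak the share was 35.7%. The other 5 were listed less regularly. FZD6 had a peak in 3 Large White and 2 Ningxiang lists, DLL4 in 3 and 1, RSPO3 in 1 and 2, FZD2 in 0 and 2, and HEY2 in 1 and 0. None of the 10 had a peak in every list of one breed and in none of the other. Over all genes, 1.34% had that pattern for Large White and 0.741% for Ningxiang. Fisher's exact test on the number of lists gave two-sided p = 0.4 for DLL4 and for FZD2 and p = 1 for the other 8. The adjusted p over all 2159 genes was 1 for each, and with 3 lists against 3 the smallest p this test can give is 0.1, so 0 of 2159 genes had an unadjusted p below 0.05.

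**Figure D1:**
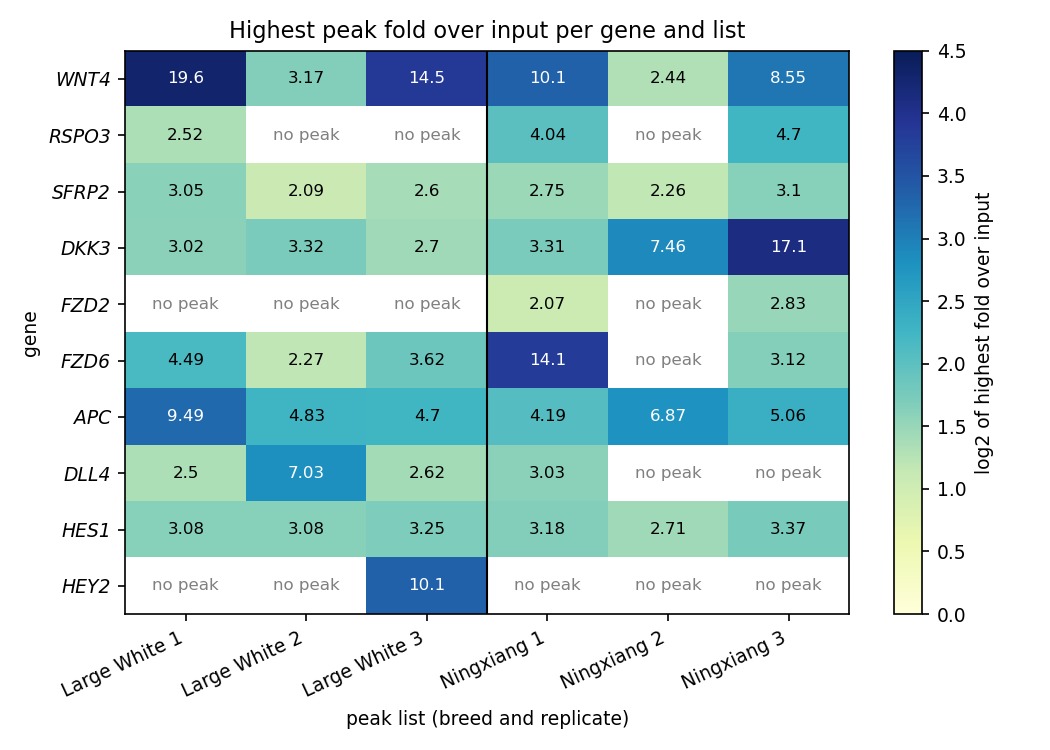
Highest fold over input of any peak on each of the 10 genes (rows) in each of the 6 lists (columns, Large White left of the line and Ningxiang right), with the colour on a log2 scale and white cells where no peak was listed. WNT4, SFRP2, DKK3, APC and HES1 fill every column, and Ningxiang replicate 2 has the fewest filled cells, with peaks on 5 of the 10 genes.

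The number of the 10 genes with a peak was 8, 7 and 8 in Large White replicates 1, 2 and 3, and 9, 5 and 8 in Ningxiang replicates 1, 2 and 3. The breeds overlapped, and Ningxiang held both the highest and the lowest count. The mean was 7.67 ± 0.577 genes for Large White and 7.33 ± 2.08 for Ningxiang (SD, n = 3 each). Ningxiang replicate 2, a list of 2111 peaks, lacked peaks on RSPO3, FZD2, FZD6, DLL4 and HEY2. The reason was not tested. Without this list the Large White mean minus the Ningxiang mean moved from 0.333 to -0.833.

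Peaks on the 10 genes had a higher fold and a weaker p than the typical peak of their list. The fold is the authors' ratio of immunoprecipitated over input signal at the peak. Because each list was called on its own, the folds of both breeds are set side by side here as a description, with no test, and are not levels of methylation. Of the 111 peaks, 87 ranked above the middle of their own list by fold (ties at their mean rank). A p below the list's median p was found for 26. The median fold was 3.12, against 2.53 over all peaks, and the median log10 p was -6.88, against -10. APC gave 54 of the 111 peaks. Without APC, 41 of 57 peaks were above the median fold and 8 of 57 were stronger than the median p. These are descriptions of chosen genes, and peaks of 1 gene in several lists are not independent.

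**Figure D2:**
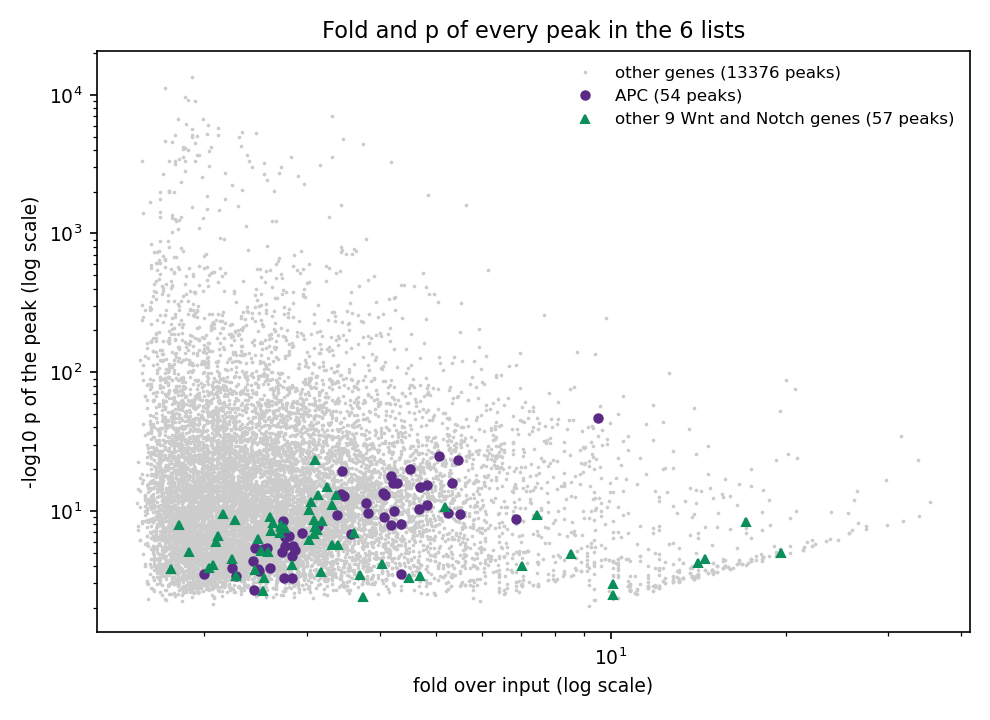
Each peak of the 6 lists by its fold over input (horizontal, log scale) and the negative log10 of its p (vertical, log scale), with APC as circles, the other 9 genes as triangles and all other genes in grey. The strongest of the 111 peaks by p is an APC peak with a fold of 9.49 and a log10 p of -46.9, while the highest fold, 19.6 on WNT4, has a log10 p of only -4.97.

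WNT4, a secreted Wnt ligand, was listed in every replicate of both breeds but never at 1 common place. The gene lies on the minus strand of chromosome 6, 80110254 to 80123362 (susScr11; transcript NM_001170828, 8 exons). Its highest fold per list was 19.6, 3.17 and 14.5 in Large White and 10.1, 2.44 and 8.55 in Ningxiang. The breeds overlapped, and replicate 2 was the lowest in each. WNT4 folds ranked high among genes in 4 lists, at the 93.8 to 99.3 percentile of best folds, and at the 60.5 and 37.0 percentile in Large White replicate 2 and Ningxiang replicate 2.

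The 9 WNT4 peaks fell into 4 sites, a site being a set of peaks that share exonic bases. The first, 80112568 to 80112836 in exon 6, was held by Large White replicate 2 and Ningxiang replicates 1 and 2. It contained the strongest WNT4 peak by p, a fold of 5.18 at a log10 p of -10.7 in Ningxiang replicate 1. The second, 80112210 to 80112478 in exon 6, was held by Large White replicate 1 and Ningxiang replicate 1, and the third, 80111912 to 80112091 in the same exon, by Ningxiang replicates 1 and 3. The fourth, 80110373 to 80110582, lay 119 to 328 bases from the 3′ end of the transcript and was held by Large White replicates 1 and 3. Of 928 WNT4 bases under any peak, 476 were covered in 1 list, 332 in 2, 120 in 3 and none in more. Over 771 genes with a peak in all 6 lists, the median share of such bases that all 6 lists covered was 22.5% (quartiles 7.61% and 39.8%). For WNT4 it was 0%, a value shared by SFRP2 and HES1. In all, 19.3% of the 771 genes had a share of 0%.

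**Figure D3:**
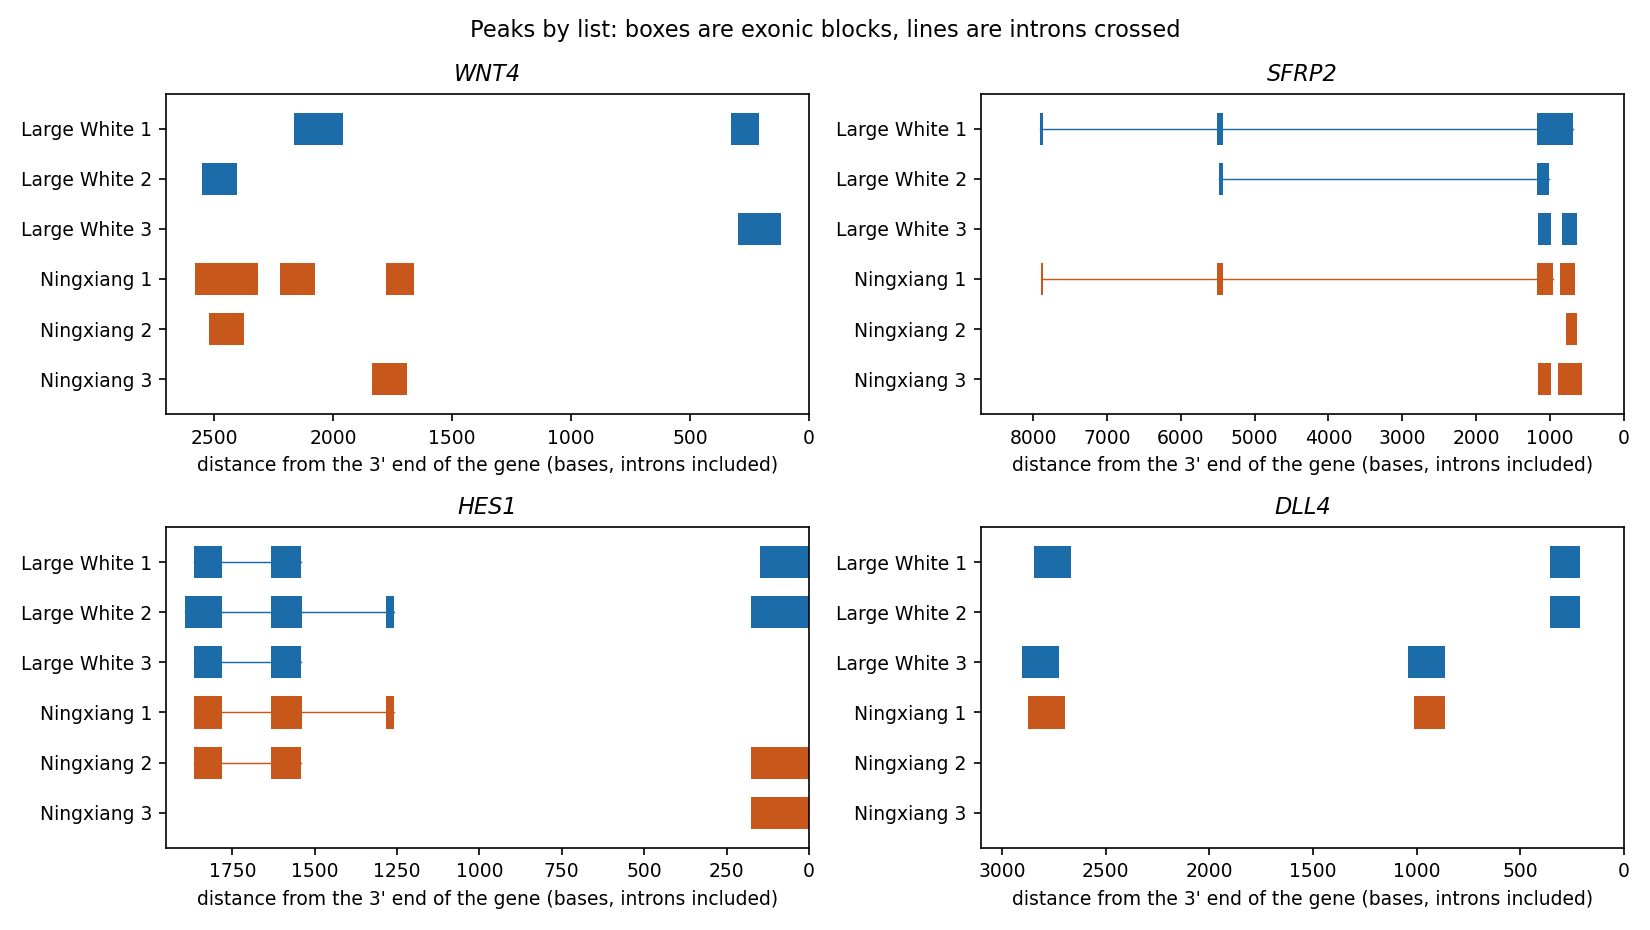
Peaks on WNT4, SFRP2, HES1 and DLL4 in the 6 lists (rows, Large White in blue and Ningxiang in orange) by distance from the 3′ end of the gene in bases, with boxes for exonic blocks and thin lines for introns that a peak crosses. WNT4 peaks sit at 4 separate sites with at most 3 lists at any of them, and HES1 peaks gather at the beginning and at the 3′ end of the gene.

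RSPO3, an R-spondin that strengthens Wnt signalling through LGR receptors, had 3 peaks, all weak by p. It lies on the minus strand of chromosome 1, 35985985 to 36066432 (NM_001315656, 5 exons). Its folds were 2.52 in Large White replicate 1, 4.04 in Ningxiang replicate 1 and 4.7 in Ningxiang replicate 3, at log10 p of -2.65, -4.12 and -3.39. No peak was listed in the other 3 lists. All 3 peaks overlapped and were listed in exons 4 and 5, and 30 bases were common to the 3 lists. In Ningxiang replicates 1 and 3 the peak crossed a splice junction. In replicate 3 it ran to 36032110, on the 5′ side of the exon it was listed in.

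SFRP2, a secreted Wnt-binding protein made by fibroblasts and other stromal cells, carried moderate folds in every list. The gene lies on the plus strand of chromosome 8, 75337311 to 75345926 (NM_001244395, 3 exons). Its highest folds were 3.05, 2.09 and 2.6 in Large White and 2.75, 2.26 and 3.1 in Ningxiang. These ranges overlapped almost entirely. Peaks covered 598, 210 and 390 exonic bases in Large White and 510, 150 and 510 in Ningxiang. The strongest, a fold of 3.1 at a log10 p of -23.4 in Ningxiang replicate 3, lay at 75345030 to 75345359 in the 3′ untranslated region.

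Every list held part of 1 exonic region of SFRP2, 75344754 to 75345359, but no base of it was covered by all 6. Large White replicate 2 covered only its 5′ part, up to 75344911, and Ningxiang replicate 2 only the 3′ part, from 75345150. In Large White replicates 1 and 2 and Ningxiang replicate 1 a peak also ran back over splice junctions, to exon 2 in Large White replicate 2 and to exon 1 in the other two. Of 8 fibroblast markers, 4 to 5 had a peak in each list. The part of fibroblasts in the SFRP2, DKK3 and RSPO3 values was not tested.

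DKK3, a secreted glycoprotein of the Dickkopf family, had a peak at the beginning of the gene in 6 of 6 lists and one near its end in 4. It lies on the plus strand of chromosome 2, 47386319 to 47444568 (NM_001039749, 7 exons). The 5′ peak began in exon 1 and crossed the first splice junction, and all lists covered the 98 bases from 47386467 to 47386564 and the 52 bases from 47394886 to 47394937. Its folds were 2.71, 3.14 and 2.7 in Large White and 3.31, 7.46 and 17.1 in Ningxiang. At this site every Ningxiang fold was above every Large White fold, an order seen after the values were known and not counted over all genes. The highest fold of DKK3 per list did overlap between the breeds, at 3.32 in Large White replicate 2 and 3.31 in Ningxiang replicate 1. By p the order was different, with log10 p of -7.85, -13.1 and -6.88 in Large White and -5.7, -9.4 and -8.25 in Ningxiang.

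The second DKK3 peak, at 47444153 to 47444420 in the 3′ untranslated region, had folds of 3.02 and 3.32 in Large White replicates 1 and 2 and of 3.1 and 2.11 in Ningxiang replicates 2 and 3. It was not listed in Large White replicate 3 or Ningxiang replicate 1. All 6 lists covered 24.0% of the DKK3 bases under any peak, close to the median of 22.5% over genes listed throughout.

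Of the Frizzled receptors, FZD6 was listed in 5 lists and FZD2 in 2. FZD6 lies on the minus strand of chromosome 4, 33811159 to 33844556 (NM_001315750, 8 exons). Its highest folds were 4.49, 2.27 and 3.62 in Large White and 14.1 and 3.12 in Ningxiang replicates 1 and 3. Its peaks fell at 2 sites. One, listed in exon 7 (33812813 to 33814634), crossed a splice junction in 3 of its 4 lists. The other, listed in exon 4 (33818211 to 33821816), was held by 3 lists and crossed one in Large White replicate 1 and Ningxiang replicate 3. The fold of 14.1 belonged to the exon 4 site, at a log10 p of -4.21, and the strongest FZD6 peak by p, at -7.26, had a fold of 3.12.

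FZD2 is a single-exon gene on the minus strand of chromosome 12, 18740419 to 18742276 (NM_001195339). Its folds were 2.07 in Ningxiang replicate 1 and 2.83 in Ningxiang replicate 3, at log10 p of -4.06 and -4.04. Both peaks were weak, and 60 of the 210 bases they covered were shared. No Large White list held a peak on FZD2. Without Ningxiang replicate 2, FZD2 would count as listed in every Ningxiang list and no Large White list, as would 41 genes of the whole series.

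APC, a protein of the beta-catenin destruction complex, carried more peaks than any single one of the other 9 genes. The gene lies on the minus strand of chromosome 2, 116913354 to 116985303 (NM_001206430, 15 exons). It had 8, 7 and 10 peaks in Large White and 9, 10 and 10 in Ningxiang, 54 in all, where the median gene had 5 over the 6 lists. That put APC at rank 8 of 2159 genes by peaks and at rank 6 by mean covered exonic length. Its highest folds were 9.49, 4.83 and 4.7 in Large White and 4.19, 6.87 and 5.06 in Ningxiang, at the 84.0 to 94.8 percentile of best folds among genes. Each was the highest of 7 to 10 peaks, more than most genes had, which can raise the percentile. The median fold of the 54 APC peaks was 3.445, against 2.53 over all peaks. The value of 9.49 in Large White replicate 1 stood above the others, and the remaining lists of the breeds overlapped.

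Nearly all APC peaks lay in its last exon, which holds most of the coding sequence of the gene. Of the 54, 52 were in exon 15 of 15, and 2 in Ningxiang replicates 1 and 3 were listed in exons 7 and 5, at log10 p of -3.28 and -2.7. The exon 15 peaks fell into 7 sites, of which 5 were held by all 6 lists, 1 by 4 and 1 by 2. The site nearest the 3′ end, 116913833 to 116915090, was 479 to 1736 bases from it. Its best folds were 9.49, 4.19 and 3.45 in Large White and 3.48, 4.29 and 4.06 in Ningxiang, at log10 p of -46.9, -17.8 and -19.5 and of -12.8, -15.8 and -13.4. It was the strongest APC site by p in Large White replicates 1 and 2 and in Ningxiang replicate 2.

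A narrower site, 116917963 to 116918292, was called in all 6 lists within 330 bases. Its folds were 5.45, 2.73 and 4.51 in Large White and 3.44, 3.79 and 5.06 in Ningxiang, and it was the strongest APC site by p in Large White replicate 3 and Ningxiang replicates 1 and 3. The breeds overlapped at both sites. The other sites in all lists were 116916527 to 116917754, with folds of 3.82 to 6.87, 116918412 to 116919250, with 2.75 to 5.33, and 116919310 to 116920298, with 2.75 to 5.25.

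**Figure D4:**
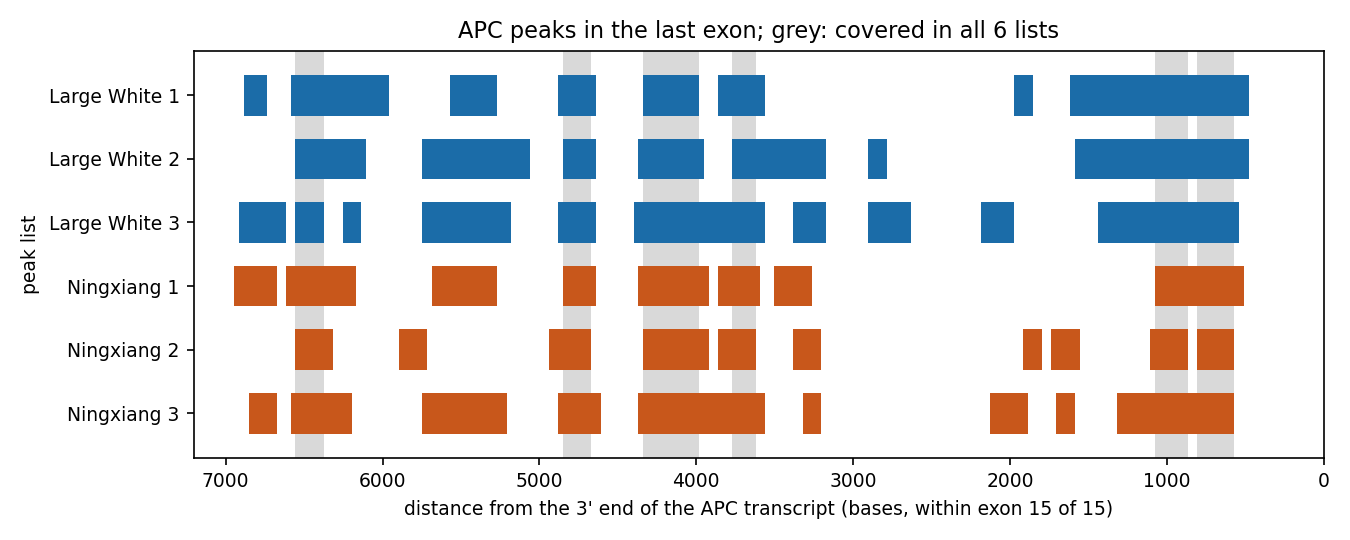
APC peaks within exon 15 in each list (rows, Large White in blue and Ningxiang in orange) by distance in bases from the 3′ end of the transcript. Grey bands mark the 6 stretches, 1322 bases in all, that all lists covered.

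Over the whole gene 5634 APC bases were under a peak in some list and 1322 of them, 23.5%, in all 6. The 1322 bases lay in 6 stretches of 150 to 360 bases. A pair of short stretches of APC, 150 bases in all or 2.66% of its covered bases, were covered in 3 of 3 Large White lists and in no Ningxiang list, where the share over all genes was 1.76%. Over the 10 genes together these 150 bases were 1.45% of 10349. The longer, 116914672 to 116914791, is 120 bases of the 3′-most site, and Ningxiang replicates 2 and 3 held peaks on both sides of it. None of the 10 genes had bases covered in every Ningxiang list and no Large White list, a class with 0.658% of all covered bases.

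**Figure D5:**
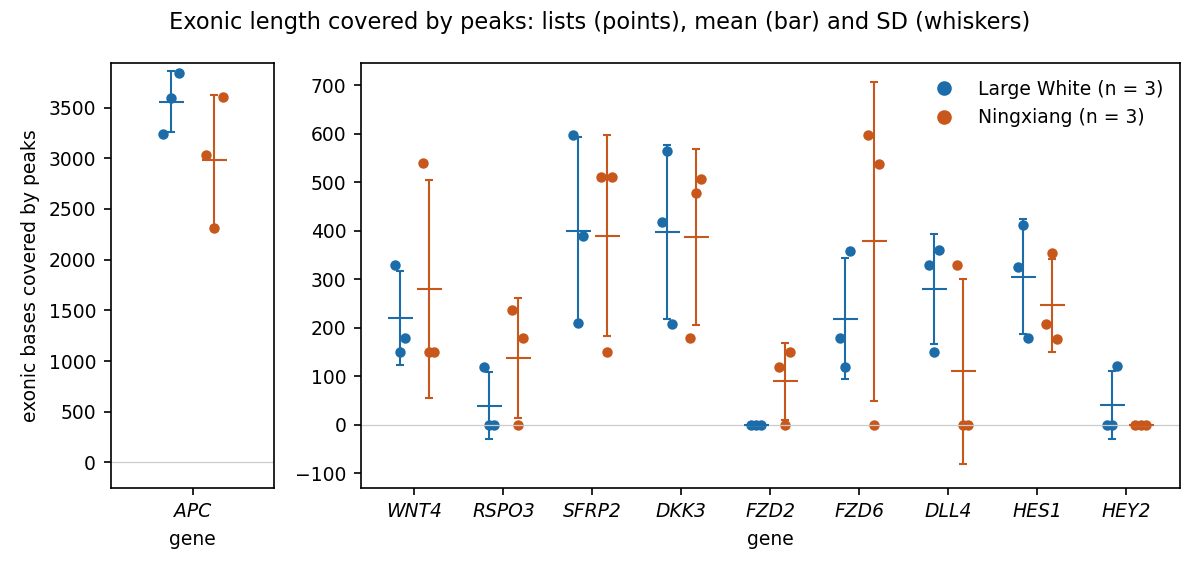
Exonic bases covered by peaks on APC (left, own scale) and on the other 9 genes (right), with a point for each list, a bar for the mean and whiskers for the SD of 3 lists, Large White in blue and Ningxiang in orange. In each of the 10 genes the points of the breeds overlap or share a value of 0.

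Covered exonic length, the number of exonic bases under peaks in a list, overlapped between the breeds in all 10 genes. For APC it was 3240, 3599 and 3841 bases in Large White and 3032, 2313 and 3602 in Ningxiang. Ningxiang replicate 3 lay within the Large White range and the other Ningxiang lists below it. The means were 3560 ± 302 and 2982 ± 646 bases (SD, n = 3), and the exact permutation test gave two-sided p = 0.3, with an adjusted p of 1 over 2159 genes. For the other 9 genes p ranged from 0.3 for DLL4 to 1, and the adjusted p was 1 for each. Over all genes, 7.78% had every Large White list above every Ningxiang list and 2.92% the reverse, against 0 of the 10 in each direction. Single lists decide this: APC would count as longer in Large White without Ningxiang replicate 3 and DLL4 without Ningxiang replicate 1, and RSPO3, FZD2 and FZD6 as longer in Ningxiang without Ningxiang replicate 2. Over all 2159 genes the same omissions gave 255 and 223 genes longer in Large White and 145 longer in Ningxiang. With 3 lists against 3 this test cannot go below 0.1, and its smallest adjusted p over all genes was 0.935.

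DLL4, the Notch ligand of endothelial cells, was listed in 3 of 3 Large White lists and in Ningxiang replicate 1. The gene lies on the minus strand of chromosome 1, 130376720 to 130386411 (NM_001244418, 11 exons). Its highest folds were 2.5, 7.03 and 2.62 in Large White and 3.03 in Ningxiang. Covered exonic length was 330, 150 and 360 bases in Large White and 330, 0 and 0 in Ningxiang, with means of 280 ± 114 and 110 ± 191 (SD, n = 3). The single Ningxiang list with DLL4 peaks was within the Large White range. Without Ningxiang replicate 1, DLL4 would count as Large White only, as would 44 genes of the whole series.

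No DLL4 site was common to all 4 of these lists. A site in exon 9, 130379387 to 130379626, was held by Large White replicates 1 and 3 and Ningxiang replicate 1, with folds of 2.23, 2.62 and 2.53. In the last exon, 11 of 11, a site at 130377584 to 130377763 was held by Large White replicate 3 and Ningxiang replicate 1, and one at 130376929 to 130377078 by Large White replicates 1 and 2. The endothelial markers PECAM1, CDH5 and ENG had a peak in all 6 lists, also in the 2 lists without DLL4. VWF had one in 3 Large White lists and 1 Ningxiang list, and CLDN5 in 0 and 1. Their part in the DLL4 pattern was not tested.

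HES1, a repressor that Notch induces, was listed throughout with similar best folds. It is a short gene on the plus strand of chromosome 13, 131135970 to 131137865 (NM_001195231, 4 exons). Its highest folds were 3.08, 3.08 and 3.25 in Large White and 3.18, 2.71 and 3.37 in Ningxiang, and the breeds overlapped. Its sites lay at opposite ends of the gene. The 5′ site, 131135970 to 131136605, began in exon 1 and crossed a splice junction, and it was held by 5 lists, all but Ningxiang replicate 3, with folds of 2.71 to 3.25.

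The 3′ site of HES1, 131137689 to 131137865 in the 3′ untranslated region, reached the last base of the gene. Its folds were 1.88 and 1.75 in Large White replicates 1 and 2 and 2.15 and 3.37 in Ningxiang replicates 2 and 3. It was not listed in Large White replicate 3 or Ningxiang replicate 1, the same lists in which the 3′ peak of DKK3 was not listed. No HES1 base was covered in all 6 lists, although the gene was listed in each. The same held for 19.3% of genes with a peak in all 6 lists.

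HEY2, another Notch-induced repressor, had 1 peak, in Large White replicate 3. The gene lies on the minus strand of chromosome 1, 37221163 to 37231321 (NM_001243329, 5 exons), and the peak at 37221821 to 37221941 in exon 5. Its fold of 10.1 was at the 96.3 percentile of best folds in that list, but its log10 p of -2.47 was weaker than that of every other peak of the 111 except a WNT4 peak at -2.39.

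Position in the gene could be compared with all peaks as a description. The midpoint of 75 of the 111 peaks, 67.6%, lay in the last 10% of the gene's genomic length, against 35.5% of all peaks. Without APC it was 23 of 57, or 40.4%. A splice junction was crossed by 23 of 111 peaks, 20.7%, and without APC by 21 of 57, 36.8%, against 56.5% of all peaks. The midpoint was that of the genomic span, introns included, so a crossing peak can be placed inside an intron. The SFRP2 peak of Large White replicate 1 reached to 687 bases from the 3′ end but was placed at 50.2% of the gene. With crossing less frequent in the 10 genes, the shares in the last 10% are not on equal terms.

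Other genes of both pathways came from a list of 148, of which 33 have a curated RefSeq transcript and could carry a peak. Peaks were found on the 10 genes above, which were taken from the peak lists, and on 13 of the other 23. Over all genes with a curated transcript 2102 of 3980, 52.8%, had a peak. Of the 13, 6 were in all 6 lists: FRZB and SFRP4, which bind Wnt as SFRP2 does, GSK3A, a kinase of the destruction complex, PYGO2, a nuclear co-activator of beta-catenin, NOTCH4, a receptor of blood vessels, and ADAM10, a protease that cuts the Notch receptor once ligand is bound. Of all genes with a peak, 35.7% were in all 6 lists. None of the 13 was listed in every list of one breed and none of the other. Over all genes, 1.34% had that pattern for Large White and 0.741% for Ningxiang. The 10 genes with a curated transcript and no peak included CTNNB1, which encodes beta-catenin, LEF1, its DNA-binding partner, and DLK1.

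Among the 13, PYGO2 and NOTCH4 ranged from 2.78 to 4.66 and from 2.91 to 19.5 in best fold. FRZB had the lowest folds of the 6, from 1.67 to 2.38, and SFRP4 ranged from 1.8 to 12.3. DKK1, the secreted antagonist of the Wnt co-receptors, had the highest median best fold of the other Wnt genes, from 1 peak of 13.1 in Large White replicate 1 at a log10 p of -3.12. Highest of the other Notch genes was NOTCH4, at 4.29.

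GSK3A and ADAM10 were the genes of the list whose covered exonic length was higher in every Large White list than in every Ningxiang list. GSK3A had 594, 476 and 594 covered bases in Large White and 388, 150 and 208 in Ningxiang. ADAM10 had 904, 841 and 844 in Large White and 422, 181 and 540 in Ningxiang. They are 2 of the 23 genes of the list with a peak, or 2 of 13 without the 10 genes above. Over all genes 7.78% had this order and 2.92% the reverse, and neither gene can pass a test of 3 lists against 3. Their folds overlapped between the breeds, at 2.33 to 3.16 and 1.9 to 2.43 for GSK3A.

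The genes most alike in pattern were those listed in the same lists with the nearest within-list percentile of best fold. For APC this was FAM193B, at a mean difference of 3.10 percentile points over 6 lists among 770 genes with the same pattern. For HES1 it was ATP2A1, the fast-muscle calcium pump (5.36 points over 6 lists), for DKK3 CXCL14 (6.04 points) and for SFRP2 ENSA (6.37 points). Strength by p did not enter this ranking. ATP2A1 peaks had a log10 p of -2030 to -3590, and the strongest HES1 peak of each list one of -6.82 to -14.8. WNT4 had no gene as near, the nearest being PHKG2 at 13.0 points. Presence in the same 4 lists as DLL4 was found for 14 other genes, with F3 the nearest at 16.3 points.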

How the data were processed

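MeRIP-seq peak lists of 6 immunoprecipitated samples were used, 1 per replicate, each assigned by the sample description that names it. Peaks were called per replicate. The deposited fold is a linear ratio over input. Per the file headers each peak also has a deposited p-value, whose log10 served here as a ranking score. HOMER, ChIPseeker 1.30.2, FastQC 0.11.9 and the build susScr11 are named, per the submitters' processing notes. The peak caller is not given in the sources used here, nor is the aligner.

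Starts count from 0, so 1 was added. Exon numbers rose along the chromosome in 437 of 439 plus-strand and 539 of 539 minus-strand transcripts with peaks in several exons, so minus-strand numbers were turned round to count from the 5′ end, and untranslated-region classes of minus-strand peaks were not used. Covered length is the union of exonic blocks. Sites were joined at an overlap of 1 bp. Fisher's exact test and exact permutation tests were run on all 2159 genes with Benjamini-Hochberg adjustment (Python 3.11.15, SciPy 1.17.1, pandas 2.3.3, NumPy 2.4.6), and tested on simulated data. Curated transcripts came from RefSeq (Sscrofa11.1); 146 of 148 pathway symbols matched. All 10 genes are named; of the other pathway genes, those in all 6 lists, those in 3 lists of one breed and at most 1 of the other, and the highest median best fold per pathway. Some names were added after their values were seen: ACTA1, TTN, MYH1, MYH2, DES, CKM, PAX7, PECAM1, CDH5, ENG, VWF, CLDN5, COL3A1, CTNNB1, LEF1 and DLK1. The genes and lists were chosen with earlier results of these data known. Input read counts and nucleotide sequences were not used here.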

Additional observations from a re-analysis of the deposited data

How the results depend on the processing

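Of the 10 genes only APC stayed in all 6 lists when the stronger 50% of each list by p was kept. There WNT4 was left in 1 list, SFRP2, DKK3 and HES1 in 2 each and the other 5 in none, and exonic regions of the 10 held by all lists fell from 8 to 1. With every list shortened to its strongest 2034 peaks, 4 genes stayed in all 6 lists, WNT4 missed 1, FZD6 was left in 3, RSPO3 in 1 and HEY2 in none, and the difference in genes per list turned to -1. It was 0.333 with all peaks and ranged from -0.833 to 1.17 with 1 list left out, the lowest without Ningxiang replicate 2. The stronger 50% gave 9 Ningxiang only genes, and 103 and 26 genes with longer coverage in Large White and Ningxiang; equal lists gave 28 Ningxiang only genes.

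With 1 list left out, the rules ask for fewer lists. Large White only genes were then 44 to 69 in number (29 with all lists) and Ningxiang only genes 22 to 41 (16). Longer coverage was found for 223 to 328 genes in Large White (168) and 89 to 145 in Ningxiang (63). Of the 10, the count of breed-only genes went from 0 to 1 in Large White (DLL4, without Ningxiang replicate 1) and from 0 to 1 in Ningxiang (FZD2, without Ningxiang replicate 2). Longer coverage was met by 0 to 1 in Large White (DLL4 or APC, without Ningxiang replicate 1 or 3) and 0 to 3 in Ningxiang (RSPO3, FZD2 and FZD6, without Ningxiang replicate 2).

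Deviations of same-numbered lists were barely correlated across genes (r of 0.0290, 0.0134 and -0.0351). Whether the numbers stand for pairs is not given in the labels, and these r values cannot decide it. As a replicate block, coverage longer within each numbered pair was met by 286 of 2159 genes in Large White and 124 in Ningxiang. Of the 10 genes, 2 met it in Large White, APC and HES1, and 0 in Ningxiang. For HES1 the replicate 3 lists held 178 covered bases in Large White and 177 in Ningxiang.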
